A study of Homo sapiens with 24 samples.

Results

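The 5 genes KLK1, KLK2, KLK3, KLK4 and KLK15 are read here as a prostate group of the kallikrein family, which encodes secreted serine proteases. The name is a label, as KLK1 was close to undetected in these cells. The 5 genes were taken by symbol from the 23207 gene symbols measured in every library. Expression was measured by RNA sequencing in 24 libraries of LNCaP cells, a human prostate cancer line that depends on androgens, in 8 groups of 3. All cells carried a lentiviral short hairpin RNA, either a non-targeting control (NTC) or one against SIRT1, a protein deacetylase. Virus was used at 10 infectious units a cell, and stable clones were selected with 1 µg/ml puromycin and maintained in 0.5 µg/ml. One set compared NTC cells with a knockdown called shSIRT1 in medium with fetal bovine serum (FBS), which supplies androgens. The other compared NTC cells with a knockdown called 10 after 48 h in FBS and 24 h in charcoal-stripped serum (CSS), from which androgens have been removed. Those cells then received vehicle, 1 nM dihydrotestosterone (DHT) or 1 nM DHT with 10 µM enzalutamide for 24 h in CSS. How shSIRT1 and 10 relate, as hairpins or clones, is not given. Nor is it given that the libraries of a group came from separate cultures, so p-values measure the spread between these libraries, which may be technical. The FBS and CSS sets were read separately. The FBS set asks which genes differ with the SIRT1 hairpin in androgen-containing medium. The CSS set asks how the response to an androgen and its antagonist differs in knockdown 10. Each set has only 1 knockdown, so loss of SIRT1 and other effects of that hairpin or clone cannot be told apart.

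Kallikreins of this group lie side by side on chromosome 19. KLK3 encodes prostate-specific antigen, a chymotrypsin-like protease that cleaves the gel proteins of semen and is the blood marker of prostate cancer. KLK2 encodes a trypsin-like protease that can activate the KLK3 proenzyme, as can the KLK15 protein. KLK4 encodes a trypsin-like protease of prostate and of developing enamel, and KLK1 the tissue kallikrein that releases kinins. In prostate cells KLK3 and KLK2 are textbook androgen-induced genes: DHT, a potent androgen, raises their transcription through response elements at their promoters and enhancers, and the antiandrogen enzalutamide blocks this.

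The sequences before the start sites of KLK3, KLK2 and KLK4 are shown because, under DHT, the first pair was lower and KLK4 higher in knockdown cells. In the RefSeq annotation of GRCh38.p14 the order is ACP4, C19orf48P, TMEM277P, KLK1, KLK15, KLK3, KLK2, the pseudogene KLKP1 and KLK4, leaving out small RNAs and genes without a name. RefSeq promoter sequences of 250 bases before to 50 after the start were matched for 4 members, 6 sequences in all. A pair of motifs was sought on both strands. The first is an androgen response element in a relaxed form, GNACA followed after any 4 bases by GTNC, where the stricter form has GNACA, any 3 bases and TGTNC and is contained in the relaxed one. The second is the TATA sequence TATAAA, which reads TTTATA on the other strand. Below are the 250 bases before each start, 5′ to 3′ on the gene's strand, with matches in capitals. The positions, in GRCh38.p14, are chr19:50854665-50854914 on the plus strand for KLK3, chr19:50873189-50873438 on the plus strand for KLK2 and chr19:50911396-50911645 on the minus strand for KLK4.
KLK3: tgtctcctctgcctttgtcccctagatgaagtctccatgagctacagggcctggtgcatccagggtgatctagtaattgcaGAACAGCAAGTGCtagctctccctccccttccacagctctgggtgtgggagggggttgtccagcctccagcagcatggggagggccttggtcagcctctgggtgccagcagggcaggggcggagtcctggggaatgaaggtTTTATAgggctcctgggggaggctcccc
KLK2: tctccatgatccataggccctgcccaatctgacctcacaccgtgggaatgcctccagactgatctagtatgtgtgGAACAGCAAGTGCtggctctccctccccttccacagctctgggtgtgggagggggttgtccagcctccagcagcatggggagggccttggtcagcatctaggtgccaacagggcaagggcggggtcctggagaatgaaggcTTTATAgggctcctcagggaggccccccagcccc
KLK4: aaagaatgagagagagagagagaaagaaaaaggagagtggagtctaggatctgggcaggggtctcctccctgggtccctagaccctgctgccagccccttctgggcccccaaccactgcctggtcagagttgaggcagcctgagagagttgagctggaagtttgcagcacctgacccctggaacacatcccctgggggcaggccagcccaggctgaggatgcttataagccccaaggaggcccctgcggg
The same 13 bases, GAACAGCAAGTGC, matched the relaxed element in KLK3, from 169 to 157 bases before the start, and in KLK2, from 175 to 163 bases before it. The TATA match lay 28 to 23 bases before the start of KLK3 and 34 to 29 before that of KLK2. Neither motif was found in the KLK4 sequence shown or in the second KLK4 promoter, and 1 of the 2 KLK15 promoters held TATAAA 30 to 25 bases before its start. Only the exact TATA sequence was sought, so near forms, such as TTATAAG in the KLK4 sequence shown, were not counted. The strict element was found in none of the 6. Among 35116 RefSeq promoters of the same length, 0.390% held the strict element, 2.19% the relaxed one and 11.5% the TATA sequence. The full promoters of KLK3 and KLK2 were 79.3% identical over all alignment columns, gaps included, against 47.0% for KLK3 and the KLK4 promoter shown. These matches are letters in a sequence, and binding was not measured.

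Libraries held 11.9 to 14.2 M counts in FBS and 25.2 to 35.1 M in CSS. Levels below are CPM, counts divided by the normalised library size in M, and levels of different genes are compared only as TPM, which also allows for transcript length. SIRT1 was lower in every knockdown group: 38.2 ± 1.6 CPM in NTC and 8.11 ± 0.788 in shSIRT1 in FBS, and in CSS 57.0 ± 1.30 against 19.5 ± 1.94 with vehicle, 49.2 ± 2.34 against 15.6 ± 2.39 under DHT and 58.7 ± 2.41 against 19.9 ± 2.03 with enzalutamide added (SD, n = 3 throughout). In FBS, libraries 1 and 2 of each cell line were close to each other, with a chi-square per gene of 1.55 and 1.6, and apart from library 3, at 8.89 to 9.39. All 10 luminal prostate markers were detected, at a summed 3403 to 4283 TPM over the 24 libraries. The 6 basal markers summed to 2.51 to 4.16 TPM, of which DST reached 3.91, KRT14 1.56, KRT5 0.08 and TP63 0.06. The 7 fibroblast markers summed to 5.08 to 10.8 TPM, with COL1A1 up to 8.5 and COL3A1 up to 3.86. The 8 leukocyte and endothelial markers summed to 17.8 to 21.1 TPM in FBS and 7.54 to 10.6 in CSS, with LYZ up to 9.88, CD68 up to 7.84, PECAM1 up to 2.73 and PTPRC up to 0.15. With vehicle the basal sum was 2.72 to 3.16 TPM in NTC and 3.63 to 4.09 in knockdown cells, where NGFR was 3.17-fold, DST 1.22-fold and COL3A1 1.45-fold higher, and PDGFRB 2.43-fold and VWF 1.8-fold lower. COL3A1, PDGFRB and VWF were also called, in the same directions, under DHT and with enzalutamide added. The part of these markers in the results was not tested. In bulk RNA, fewer cells of a type and less RNA per cell cannot be told apart.

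KLK1 was close to undetected in these cells. It gave 7 counts over the 3 NTC libraries and 2 over the shSIRT1 libraries in FBS. In CSS it gave 1, 6 and 3 counts in NTC cells with vehicle, DHT and DHT with enzalutamide, and 1, 11 and 0 in knockdown cells. A count of 0 allows up to 0.0345 CPM there. The ratio of DHT to vehicle was 5.94 (exact 95% interval 0.721 to 273) in NTC and 12.6 (1.84 to 544) in knockdown cells, counting error only. KLK1 did not pass the filter on low counts. The other 4 members passed it in both sets.

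In stripped serum, KLK3 and KLK2 were lower in knockdown 10 than in NTC cells under each of the 3 treatments. KLK15 was lower with vehicle and with DHT and enzalutamide, and KLK4 was lower in these but higher under DHT alone. KLK3 with vehicle stood at 24.2, 23.5 and 27.4 CPM in the NTC libraries and at 6.46, 4.83 and 6.43 in the knockdown libraries. All 3 knockdown libraries lay far below the NTC libraries, a 4.23-fold difference (log2 fold change −2.08, SE 0.17, adjusted p = 7.09e-08, edgeR quasi-likelihood test with Benjamini-Hochberg adjustment, as for all adjusted p below). Under DHT, KLK3 was 256, 208 and 239 CPM in NTC and 111, 82.3 and 85.6 in knockdown cells. KLK3 was 2.52-fold lower (log2 −1.33, SE 0.13, adjusted p = 4.52e-07), and the groups again did not overlap. The share of all genes separated in this way is not given. Overlap, here and for the members below, is therefore a description only. With enzalutamide added to DHT, KLK3 was 30.7, 41.6 and 43.8 CPM in NTC and 14.6, 11.0 and 12.6 in knockdown cells, 3.05-fold lower (log2 −1.61, SE 0.15, adjusted p = 4.63e-07). The 6 group means of KLK3 fell in the order NTC with DHT, knockdown with DHT, NTC with DHT and enzalutamide, NTC with vehicle, knockdown with DHT and enzalutamide, and knockdown with vehicle, and no 2 neighbours in this order overlapped.

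**Figure D1:**
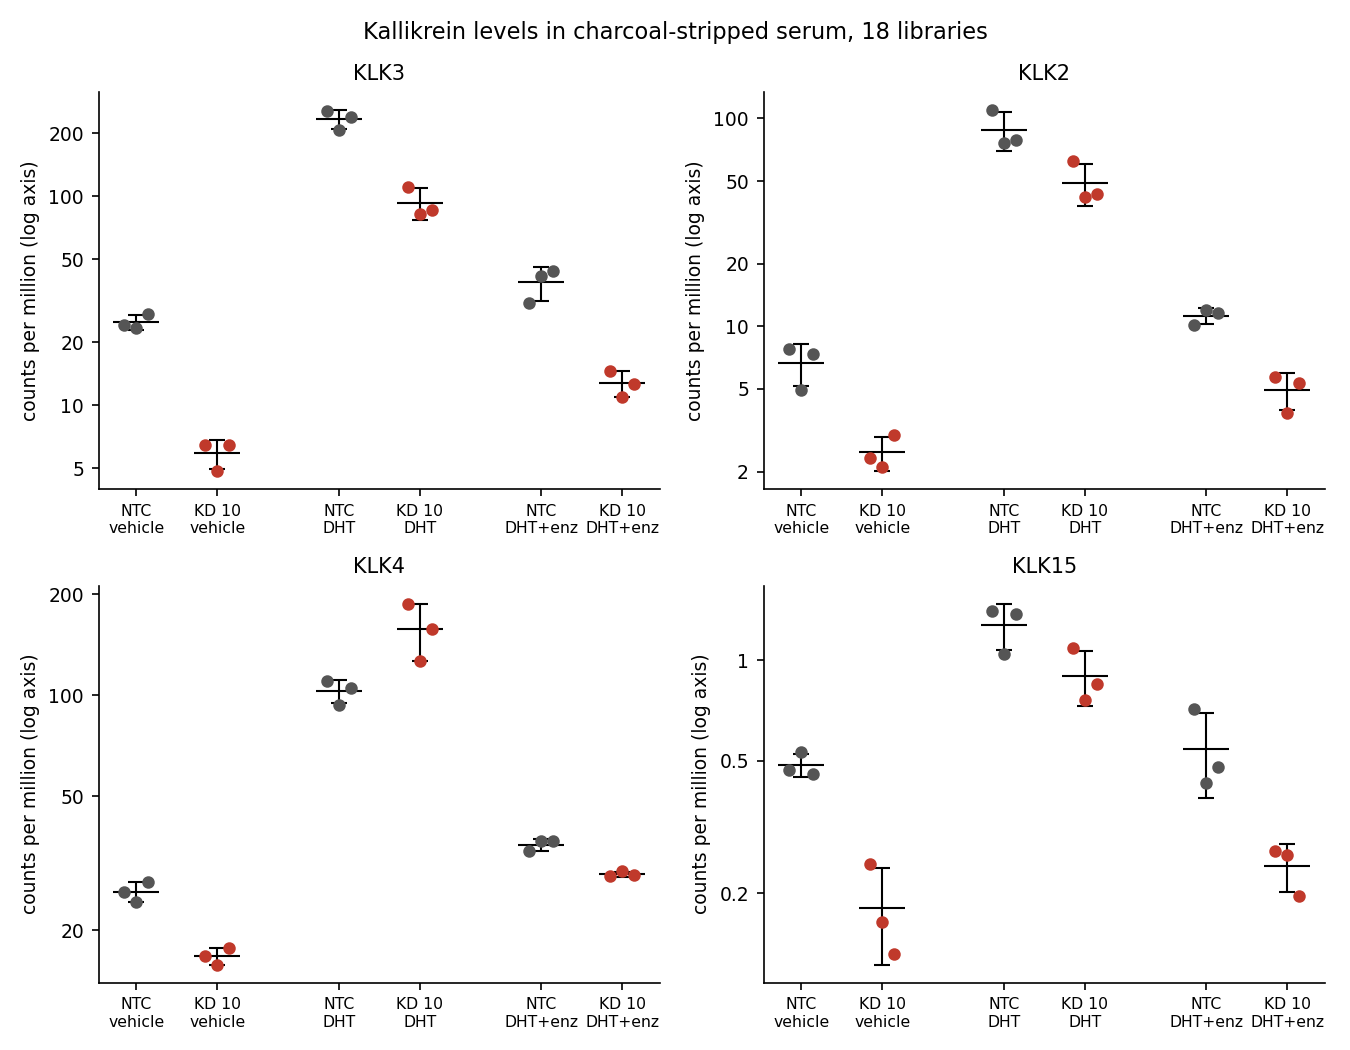
CPM (log axis) of KLK3, KLK2, KLK4 and KLK15 in the 18 stripped-serum libraries, with NTC in grey and knockdown 10 (KD 10) in red, points for libraries in the order 1, 2, 3, and a line and bars for mean ± SD. KLK3 and KLK2 are lower in knockdown cells under each treatment, while KLK4 under DHT is higher in knockdown (127 to 188 CPM) than in NTC libraries (93.9 to 110).

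KLK2 followed the same course at a lower level. With vehicle it was 7.76, 4.95 and 7.33 CPM in NTC and 2.33, 2.10 and 3.0 in knockdown cells, 2.71-fold lower (log2 −1.44, SE 0.25, adjusted p = 0.000233). Under DHT it was 110, 76.1 and 78.9 CPM in NTC and 62.2, 41.8 and 43.5 in knockdown cells, 1.8-fold lower (log2 −0.85, SE 0.17, adjusted p = 0.000488). With enzalutamide it was 10.1 to 12 CPM in NTC and 3.82 to 5.71 in knockdown cells, 2.27-fold lower (log2 −1.18, adjusted p = 0.000355). Its group means had the same order as those of KLK3, and the only neighbours that overlapped were NTC with vehicle and knockdown with DHT and enzalutamide.

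KLK4 changed sides with the treatment. With vehicle it was 26.0, 24.3 and 27.7 CPM in NTC and 16.7, 15.8 and 17.7 in knockdown cells, 1.56-fold lower with no overlap (log2 −0.64, SE 0.11, adjusted p = 0.000244). Under DHT it was 110, 93.9 and 105 CPM in NTC and 188, 127 and 157 in knockdown cells, 1.53-fold higher with no overlap (log2 0.61, SE 0.10, adjusted p = 8.38e-05). Knockdown library 1 was the highest of these, and without it the difference was 0.45 (adjusted p = 0.000289). With DHT and enzalutamide KLK4 was 34.3 to 36.9 CPM in NTC and 28.9 to 29.9 in knockdown cells. That 1.22-fold lower level passed the test narrowly (log2 −0.29, adjusted p = 0.0403), and the call was lost when any 1 of the 6 libraries was left out (adjusted p 0.0588 to 0.117) and in a limma test on TPM (0.119). Of the 4 tested members only KLK4 had its highest group mean in knockdown cells, those with DHT. No 2 neighbours in the order of its 6 groups overlapped. As for KLK3, the share of all genes so separated is not given, and nothing is read from it.

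KLK15 was the least abundant of the 4 tested, with 4 to 45 counts in a CSS library. With vehicle its level was 0.470, 0.530 and 0.458 CPM in NTC and 0.245, 0.164 and 0.132 in knockdown cells, 2.63-fold lower (log2 −1.40, SE 0.33, adjusted p = 0.00331). With DHT and enzalutamide it was 0.428 to 0.717 CPM in NTC and 0.196 to 0.268 in knockdown cells, 2.24-fold lower (log2 −1.17, SE 0.31, adjusted p = 0.00756). Without NTC library 1, the highest, that call was lost (log2 −0.89, adjusted p = 0.0780). Under DHT the groups overlapped, at 1.04 to 1.41 and 0.761 to 1.09 CPM, and the difference was not called (log2 −0.51, 95% interval −1.0 to −0.02, adjusted p = 0.0857). It was called with limma on TPM (adjusted p = 0.0362) and, with edgeR, without knockdown library 1 (log2 −0.67, adjusted p = 0.04997).

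**Figure D2:**
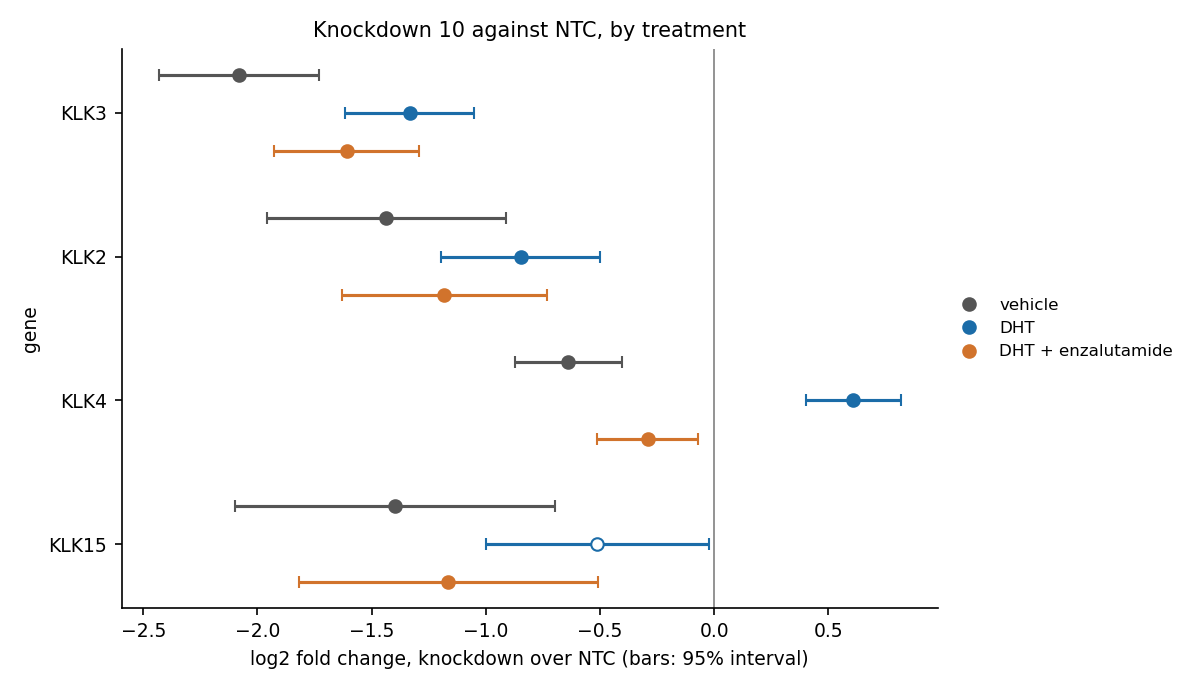
Log2 fold change of knockdown 10 over NTC for KLK3, KLK2, KLK4 and KLK15 with vehicle, DHT, or DHT and enzalutamide, with 95% intervals as bars and filled points for adjusted p under 0.05. KLK4 lies at −0.64 with vehicle and at 0.61 under DHT, and KLK15 under DHT is the open point.

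Knockdown 10 and NTC cells differed in many genes, which sets the scale for these calls. With vehicle 19.1% of the 14558 genes tested were called lower and 15.5% higher, against 4 of 4 tested members lower. Under DHT 23.5% were lower and 19.5% higher, against KLK3 and KLK2 lower and KLK4 higher. With DHT and enzalutamide 19.2% were lower and 15.4% higher, against 4 members lower. Ranked by log2 fold change with vehicle, KLK3 was the 113th lowest gene, KLK2 the 337th, KLK15 the 351st and KLK4 the 1175th. Under DHT, KLK4 ranked 938th from the top.

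Other androgen-induced genes were lower more often than higher in knockdown cells, and the list was chosen with earlier results known. With vehicle 14 of 29 tested were lower and 1 higher, with a median log2 fold change of −0.34 against −0.004 over all genes. FKBP5, a co-chaperone of steroid receptors, was 1.6-fold lower, the kinase CAMKK2 1.23-fold, the membrane protein gene SLC45A3 1.47-fold and ADAM7 2.68-fold. Under DHT 13 were lower and 1 higher (median −0.26), and with enzalutamide 14 and 1 (median −0.35). Of 16 genes for factors known at kallikrein enhancers, 5 were higher and 3 lower with vehicle, and 7 higher and 3 lower under DHT. The 2 factors with the lowest adjusted p with vehicle were the histone demethylase KDM1A (log2 −0.45) and the Mediator subunit MED1 (log2 −0.32).

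Genes around and beyond the members moved in part with them. C19orf48, which lies beyond the KLK1 end of the cluster and is named C19orf48P in RefSeq, was lower in knockdown cells with vehicle (89.9 ± 4.19 against 54.4 ± 3.38 CPM, adjusted p = 3.19e-06) and under DHT (236 ± 23.3 against 160 ± 17.4 CPM, adjusted p = 2.02e-05). KLKP1, the pseudogene between KLK2 and KLK4, was 5.0 ± 1.22 CPM in NTC and 6.99 ± 1.70 in knockdown cells under DHT, a difference that was not called (log2 0.48, adjusted p = 0.104). Of the 11 other tissue kallikrein genes only KLKP1 passed the low-count filter in CSS. Of 7 tested genes for proteins that kallikreins can cleave, 1 was higher and 2 lower with vehicle, and 2 higher and 1 lower under DHT. IGFBP3, an insulin-like growth factor carrier, was 2.78-fold higher with vehicle and 3.91-fold higher under DHT, and the kininogen gene KNG1 was 2.81-fold and 1.81-fold lower. Of 4 tested protease inhibitor genes edgeR called SPINT1, a membrane-bound inhibitor of serine proteases, 1.17-fold and 1.2-fold higher. With vehicle 3 of the 4 had an unadjusted p under 0.05, and DESeq2 and limma each called 2.

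DHT raised all 4 tested members in both cell types, and they ranked high among the genes tested. In NTC cells KLK2 rose 13.2-fold (log2 3.72, SE 0.19, adjusted p = 1.6e-09), KLK3 9.37-fold (log2 3.23, SE 0.15, adjusted p = 3.96e-10), KLK4 3.96-fold (log2 1.98, SE 0.11, adjusted p = 1.6e-09) and KLK15 2.62-fold (log2 1.39, SE 0.25, adjusted p = 0.000363). By log2 fold change they were the 7th, 13th, 48th and 232nd highest of 14558 genes, of which 17.4% were called higher and 12.5% lower. In knockdown cells KLK2 rose 19.8-fold (log2 4.31, SE 0.22), KLK3 15.7-fold (log2 3.97, SE 0.16), KLK4 9.39-fold (log2 3.23, SE 0.11) and KLK15 4.85-fold (log2 2.28, SE 0.31), with adjusted p from 3.71e-12 for KLK4 to 3.63e-05 for KLK15. They ranked 5th, 9th, 21st and 39th, where 13.3% of genes were called higher and 8.92% lower. KLK4 had the lowest adjusted p of all genes in knockdown cells and KLK3 in NTC cells. For all 4 members every DHT library lay above every vehicle library of the same cells. The share of all genes with such a separation is not given, so it is a description only.

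Other genes answered DHT in the same direction. Of 29 other androgen-induced genes tested, 23 rose in NTC cells (median log2 fold change 0.71, against −0.002 over all genes) and 22 in knockdown cells (median 0.91, against 0.008). CHRNA2, a nicotinic receptor subunit, rose 15.3-fold in NTC cells, the methyltransferase gene GNMT 3.17-fold and SLC45A3 2.57-fold. C19orf48 rose 2.62-fold in NTC and 2.93-fold in knockdown cells, and KLKP1 5.05-fold and 9.55-fold.

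Enzalutamide added to DHT lowered all 4 members in both cell types. In NTC cells KLK2 fell 7.88-fold (log2 −2.98, SE 0.18), KLK3 6.06-fold (log2 −2.60, SE 0.14), KLK4 2.87-fold (log2 −1.52, SE 0.10) and KLK15 2.33-fold (log2 −1.22, SE 0.24), with adjusted p between 8.94e-10 for KLK3 and 0.000907 for KLK15. In knockdown cells the falls were 9.94-fold for KLK2 (log2 −3.31), 7.34-fold for KLK3 (log2 −2.87), 5.35-fold for KLK4 (log2 −2.42) and 3.67-fold for KLK15 (log2 −1.88), with adjusted p between 2.38e-10 for KLK4 and 0.0002 for KLK15. Among all genes 16.6% were lower and 12.6% higher in NTC cells, and 12.2% and 8.08% in knockdown cells. With the library numbers as a block, 31% of genes were called in either direction in knockdown cells, and the 4 member calls stood. Of 29 other androgen-induced genes 23 fell and 1 rose in each cell type (medians −0.81 in NTC and −0.87 in knockdown cells).

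**Figure D3:**
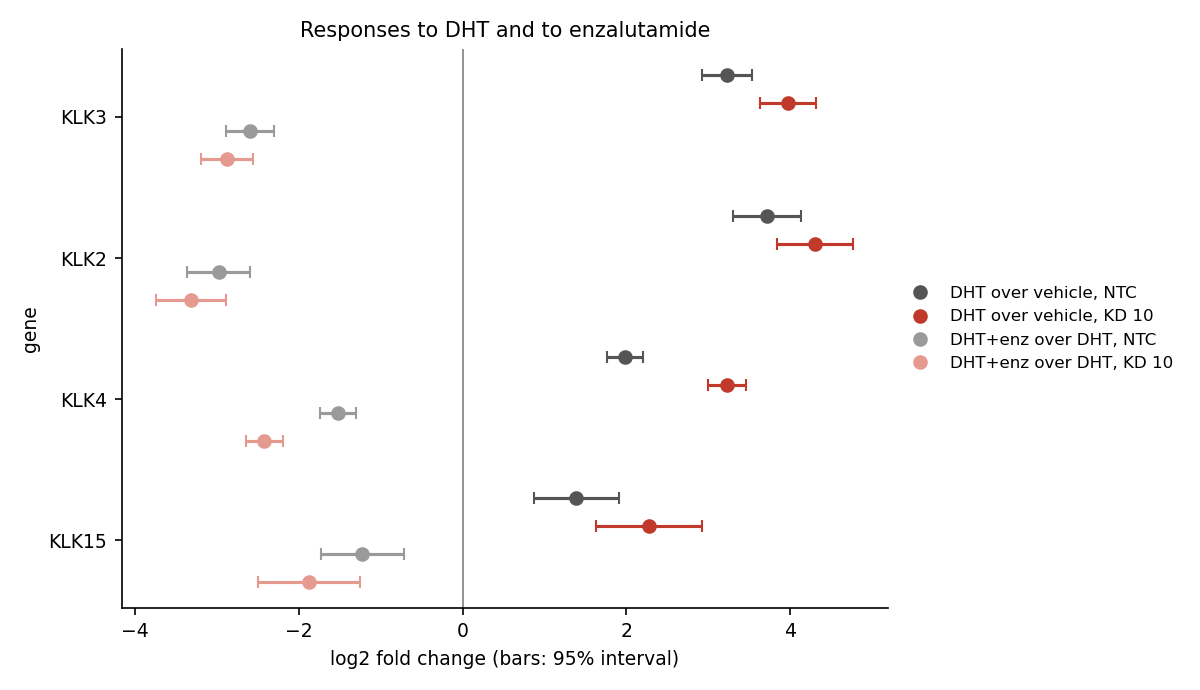
Log2 fold changes of KLK3, KLK2, KLK4 and KLK15 for DHT over vehicle and for DHT with enzalutamide over DHT, in NTC (greys) and knockdown 10 cells (reds), with 95% intervals as bars. All 16 changes passed an adjusted p of 0.05, and for KLK4 the intervals of the 2 cell types do not overlap in either response (1.98 and 3.23 for DHT, −1.52 and −2.42 for enzalutamide).

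The difference between the cell types in these responses was tested as an interaction. KLK4 rose more under DHT in knockdown than in NTC cells, by 1.25 on the log2 scale (SE 0.15, 95% interval 0.94 to 1.56, adjusted p = 0.00209), and had the lowest adjusted p of the 14558 genes. Only 0.0412% of genes were called with a higher and 0.158% with a lower DHT response in knockdown cells, 29 genes in all. For KLK3 the difference was 0.75 (interval 0.30 to 1.2, adjusted p = 0.180), which DESeq2 called (adjusted p = 0.0371). With the library numbers as a block edgeR called it too (adjusted p = 0.0437), along with 2.93% of genes in either direction. Some same-numbered libraries of these groups did not deviate together. For KLK2 the difference was 0.59 (interval −0.04 to 1.22, adjusted p = 0.499) and for KLK15 0.89 (interval 0.03 to 1.74, adjusted p = 0.453). These intervals include sizes near that of KLK4, so the data do not show that KLK4 differed from the other members. For the enzalutamide response KLK4 again differed, falling further in knockdown cells by −0.90 (SE 0.14, interval −1.2 to −0.60, adjusted p = 0.0102), where 0.0824% of genes were called lower and 0.268% higher, 3.94% in either direction with the block. The differences for KLK3, at −0.27 (interval −0.70 to 0.15), KLK2, at −0.33 (−0.90 to 0.23), and KLK15, at −0.65 (−1.47 to 0.17), were not called. Both KLK4 interactions use the same DHT libraries, and both calls were lost in a limma test on TPM (adjusted p = 0.0502 and 0.0785).

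Enzalutamide took away most of the DHT rise of the members, while their group means stayed above those with vehicle. In NTC cells the part of the mean DHT rise that remained was 5.56% for KLK2 (4.19 to 6.49% over the 3 enzalutamide libraries, a range that leaves out the spread of the DHT and vehicle libraries), 6.54% for KLK3 (2.73 to 8.98%), 12.9% for KLK4 (10.7 to 14.1%) and 6.94% for KLK15 (−7.37 to 29.2%). In knockdown cells it was 5.31% for KLK2 (2.89 to 6.93%), 7.81% for KLK3 (5.79 to 9.93%), 9.0% for KLK4 (8.68 to 9.38%) and 8.57% for KLK15 (2.24 to 12.2%). Against vehicle, no gene was called in NTC cells, 0% in either direction by edgeR, with 453 genes at an unadjusted p under 0.05, and none by DESeq2 or limma. KLK3 was there 1.54-fold above vehicle (log2 0.63, interval 0.33 to 0.93), KLK2 1.67-fold (log2 0.74, 0.31 to 1.17), KLK4 1.38-fold (log2 0.46, 0.24 to 0.69) and KLK15 1.12-fold (log2 0.17, −0.41 to 0.74), with an adjusted p of 1 each. The libraries of KLK3, KLK2 and KLK4 with enzalutamide all lay above those with vehicle. How many of all genes were separated in this way is not given, so nothing is read from it. In knockdown cells KLK4 was the 1 gene called of 14558 (0.00687% higher, 0% lower by edgeR, with 477 genes at an unadjusted p under 0.05), 1.76-fold above vehicle (log2 0.81, SE 0.11, adjusted p = 0.0137). KLK3 was 2.14-fold above it (log2 1.1, adjusted p = 0.0530), a difference called with the block (adjusted p = 0.0171), and KLK2 1.99-fold (log2 0.99, adjusted p = 1). DESeq2 called 6 genes here, KLK2 and KLK3 among them, and limma on TPM called none. The KLK4 call was lost when any of the 3 vehicle libraries or knockdown enzalutamide library 2 or 3 was left out (adjusted p 0.0536 to 0.145). The difference between cell types in this comparison was called for no gene by edgeR (0% in either direction, 192 genes at an unadjusted p under 0.05), DESeq2 or limma, and was 0.35 for KLK4 (interval 0.02 to 0.67).

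The balance of KLK3 to KLK4 set the cell types apart on the TPM scale. The ratio of KLK3 to KLK4 in NTC cells was 0.845 ± 0.0255 with vehicle, 2.0 ± 0.0455 under DHT and 0.944 ± 0.141 with enzalutamide. In knockdown cells it was 0.308 ± 0.0337, 0.523 ± 0.0449 and 0.383 ± 0.0577. No knockdown library reached the lowest NTC ratio of the same treatment, so that under DHT the more abundant transcript was KLK3 in all 3 NTC libraries and KLK4 in all 3 knockdown libraries. Of the summed TPM of the 5 members under DHT, KLK4 made up 29.6 ± 0.814% in NTC and 60.2 ± 2.13% in knockdown cells, and KLK3 59.3 ± 0.489% and 31.4 ± 1.62%. That sum was 502 ± 36.1 TPM in NTC and 371 ± 93.0 in knockdown cells under DHT, with overlapping ranges (463 to 535 and 280 to 466), and 72.9 ± 6.64 and 33.3 ± 3.12 with vehicle. These ratios are given as a description, with no test.

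**Figure D4:**
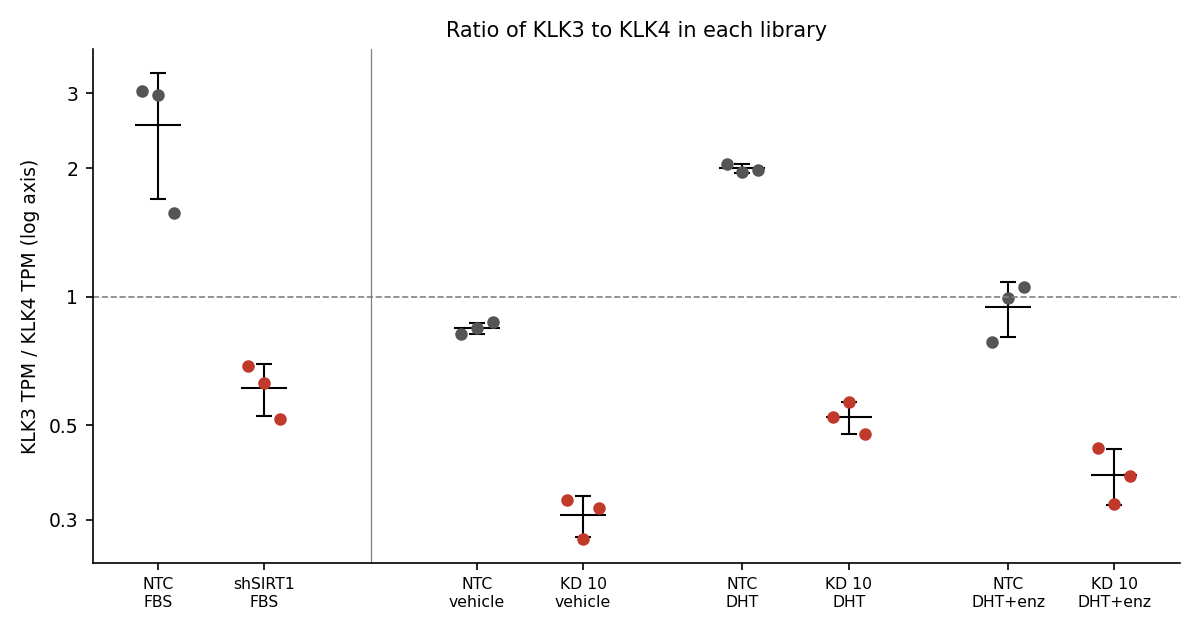
Ratio of KLK3 to KLK4 TPM (log axis) in each of the 24 libraries, NTC in grey and knockdown in red, FBS left and stripped serum right of the grey line, with mean ± SD. Under DHT the NTC libraries lie at 1.97 to 2.05 and the knockdown libraries at 0.477 to 0.567, on either side of 1.

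Across the 18 CSS libraries the members varied together, and more so in pairs. Pearson's r of log2 CPM was 0.980 for KLK2 and KLK3, 0.958 for KLK3 and KLK15, 0.946 for KLK2 and KLK4 and 0.890 for KLK3 and KLK4, values that describe 6 groups of 3 libraries with shared treatments. The 6 genes most like KLK3 among 12058 were C19orf48 (r 0.989), CCDC86 (0.983), SLC45A3 (0.980), KCNN2 (0.977), PPRC1 (0.970) and GPR158 (0.968). Those most like KLK2 were SLC45A3 (0.992), C19orf48 (0.987), GPR158 (0.978), AZGP1 (0.971), MRPL17 (0.965) and ALDH1A3 (0.965). KLK4 had another set, SORD (0.970), KLKP1 (0.966), SEC11C (0.954), C1orf116 (0.952), SMPD4 (0.952) and INPP4B (0.946). Under DHT, where 23.5% of all genes were called lower in knockdown cells, 6 of the 6 genes of the KLK3 set were called lower (log2 −0.80 for KCNN2 to −0.28 for PPRC1). Of the KLK2 set 4 of 6 were, with AZGP1 (log2 −0.17, adjusted p = 0.431) and MRPL17 (log2 −0.14, adjusted p = 0.0942) not called. Of the KLK4 set SEC11C was called higher (log2 0.24, adjusted p = 0.00304) and the other 5 were not called. These genes were chosen for their likeness over the same libraries, so nothing is read from these counts.

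In FBS, KLK3 was the 1 member called of 4 tested with the SIRT1 hairpin, and differences between members were not tested. KLK3 was 432, 431 and 268 CPM in NTC and 103, 101 and 91.4 in shSIRT1 cells, 3.83-fold lower (log2 −1.94, SE 0.17, interval −2.31 to −1.56, adjusted p = 0.000565), and the 41st lowest log2 fold change of 14329 genes. NTC library 3 was the low one, still above every shSIRT1 library, and without it the difference was −2.13. The KLK3 call stood in all 13 alternatives by edgeR, DESeq2 or limma, with an adjusted p of up to 0.0205. Libraries 1 and 2 summed was among them. Of all genes 2.21% were called lower and 0.509% higher, 389 in all. With the library numbers as a block 11.7% were called in either direction, and no member call changed. KLK2 was 151, 163 and 209 CPM in NTC and 171, 166 and 156 in shSIRT1 cells, overlapping groups (log2 −0.09, interval −0.33 to 0.16, adjusted p = 0.739). KLK4 was 127, 130 and 153 CPM against 135, 144 and 159 (log2 0.09, interval −0.10 to 0.29, adjusted p = 0.644), and KLK15 1.96, 2.84 and 3.62 against 1.86, 2.33 and 2.12 (log2 −0.40, interval −0.99 to 0.18, adjusted p = 0.475). For KLK1, with 7 counts against 2, the ratio of NTC to shSIRT1 was 3.16 (exact 95% interval 0.601 to 31.2, counting error only). In NTC library 3, where KLK3 was lowest, KLK2, KLK4 and KLK15 were highest of the NTC group. The KLK3 to KLK2 ratio of TPM was 2.49 there and 5.15 and 5.5 in the other NTC libraries, against 1.17 ± 0.0200 in shSIRT1 cells. The KLK3 to KLK4 ratio was 2.53 ± 0.828 in NTC and 0.612 ± 0.0861 in shSIRT1 cells.

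**Figure D5:**
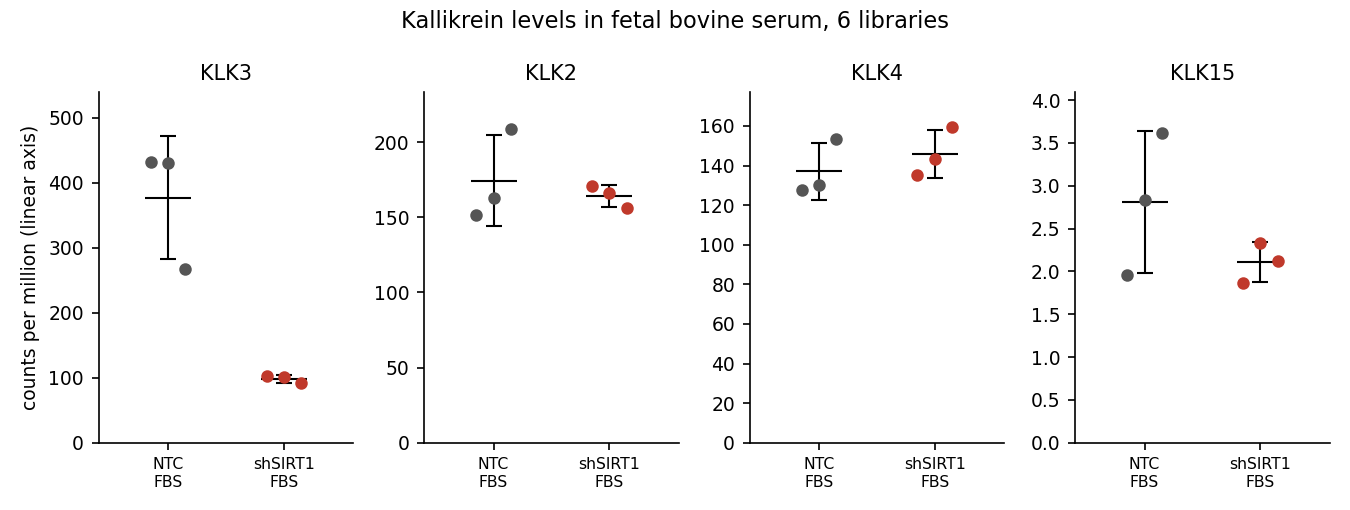
CPM (linear axis from 0) of KLK3, KLK2, KLK4 and KLK15 in the 6 FBS libraries, NTC in grey and shSIRT1 in red, points in the order 1, 2, 3 with mean ± SD. KLK3 is lower in all 3 shSIRT1 libraries, the low NTC point is library 3 at 268, and the other panels overlap.

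Among other genes in FBS, 5 of 30 androgen-induced genes were lower with the hairpin (median log2 fold change −0.26, against 0.005 over all genes), among them NDRG1 (1.77-fold), the cation channel gene TRPM8 (2.13-fold), PPAP2A (1.28-fold) and CENPN (1.42-fold). The plasminogen gene PLG was 3.58-fold and the fibronectin gene FN1 2.11-fold lower. They were the 2 called of 6 tested genes for proteins that kallikreins can cleave. DESeq2 called 2 genes of this list and limma on TPM called 0. PLG had 113 counts over the NTC and 28 over the shSIRT1 libraries, and FN1 ranged from 58.4 to 110 TPM within NTC. Of the 16 genes for factors at kallikrein enhancers none was called by edgeR, DESeq2 or limma, with 4 at an unadjusted p under 0.05. C19orf48 stood at 393 ± 10.5 and 398 ± 13.6 CPM (log2 0.02, adjusted p = 0.905). KLKP1 stood at 10.0 ± 1.93 and 12.6 ± 0.478 CPM (log2 0.33, adjusted p = 0.293).

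Reads shared between members could blur these levels only where transcripts are alike. Of 1953 windows of 50 bases in the KLK3 transcripts that matched GENCODE, 11 (0.563%) occurred in KLK2. None of those of KLK4, KLK1, KLK15 or KLKP1 occurred in another of these genes. Only exact matches among these genes were sought, and only 1 of the 3 KLK15 transcripts matched GENCODE. KLK4, with 1 transcript, had expected counts that were not whole, such as 688.28 in NTC vehicle library 2. Reads shared through near matches or with other genes were not examined. The transcript length that RSEM assigned varied by library from 1484 to 1521 bases for KLK3 and from 1054 to 1309 for KLK15, which enters the TPM ratios but not the tests on counts.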

How the data were processed

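RNA was sequenced from 24 libraries with a stranded mRNA kit and about 500 ng of RNA, per the labels' protocols. The authors deposited RSEM expected counts, TPM and FPKM for each gene. CASAVA 1.8.2, RSEM 1.2.31 and the build hg19 are named in the submitters' processing notes, and the aligner is not given in the sources used here. RSEM took 50 bases off each length in FBS and 224 to 252 in CSS, so TPM was compared within a set only. FPKM was not used.

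Expected counts were rounded and tested with edgeR 4.0.16 in R 4.3.3 (filterByExpr with a minimum count of 10, TMM, two-sided quasi-likelihood test), in 1 fit of 6 FBS libraries (14329 genes) and 1 of 18 CSS libraries (14558 genes). Each of 13 comparisons was adjusted by Benjamini-Hochberg over its genes, and a gene was called at an adjusted p under 0.05. Intervals are 95%, and those of KLK1 cover counting error only. The test was checked on simulated data in which all libraries were independent. That check does not cover libraries that deviate together, as many did here. The members and gene lists were chosen with earlier results of these data known. The text names the 5 members, SIRT1, up to 4 called genes of each list by lowest adjusted p, and the 6 genes with the highest Pearson r with a member over 18 CSS libraries (log2 CPM with a prior count of 2, average of at least 1). KLKP1, and C19orf48 in FBS, were named after their values were seen. Some genes that this rule covers are not reported here. In FBS the 3 same-numbered pairs deviated together (correlation at least 0.161). So did NTC library 2 with shSIRT1 library 1 (0.230) and NTC library 1 with shSIRT1 library 2 (0.154). The libraries numbered 3 went only with each other (0.401). In CSS 43 of 45 same-numbered pairs had a correlation over 0.1 (median 0.321), and the main fit had no term for the library number. Among the 16 pairs of groups 2, each with the knockdown DHT group and a vehicle group, held a pair at or under 0.1.

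Alternatives were DESeq2 1.42.0, its size factors, no filter, a replicate block, limma 3.58.1 on log2(TPM + 0.5) with at least 0.5 TPM in 3 libraries, each library left out, only the groups compared, and FBS libraries 1 and 2 summed. Leaving out both FBS libraries numbered 3 was chosen after seeing the data. Promoters were aligned with Biopython 1.88. Shared windows used GENCODE v29 transcripts.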

Additional observations from a re-analysis of the deposited data

Results flagged for a closer look

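The response of KLK4 differed between knockdown 10 and NTC cells by the test of the difference itself. For DHT against vehicle the difference was 1.25 on the log2 scale, and for enzalutamide with DHT against DHT it was −0.90. Both values share the DHT libraries, and knockdown DHT library 1 was the highest for KLK4. Without that library the differences were 1.08 (adjusted p = 0.000396) and −0.74 (adjusted p = 0.00638, edgeR quasi-likelihood test). Of the KD10 DHT libraries, 1 and 2 were the pair furthest apart over all genes, with a chi-square per gene of 38.6. Its part in the result was not tested beyond leaving libraries out.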

How the results depend on the processing

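For 52 member results, 685 alternative values were computed: 656 kept direction and side of the threshold, 16 lost the call, 9 gained it and 4 changed sign. KLK2 in FBS, at −0.09, turned to 0.10 without both libraries numbered 3, and ranged from −0.18 to 0.062 with 1 library left out. KLK15 for enzalutamide with DHT against vehicle in NTC cells ranged from −0.094 to 0.30 with 1 library left out, and its interaction was −0.062 with limma on TPM. None of these was called. The number of members called in FBS rose from 1 to 2 without both libraries numbered 3, where KLK4 was called (0.11, adjusted p = 0.0499). For knockdown against NTC with DHT and enzalutamide it ranged from 2 to 3 of 4 with 1 library left out. For enzalutamide with DHT against vehicle in knockdown cells, 1 became 3 with DESeq2, 2 without the filter, 2 with the replicate block and 0 with limma, and 0 to 1 with 1 library left out. For the interaction with DHT, 1 became 2 with DESeq2, 2 with the replicate block (KLK3, adjusted p = 0.0437) and 0 with limma, and for that with enzalutamide 0 with limma. The cause was not tested. The block changed no other member call.

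Counts over all genes moved further. In FBS 389 genes became 1676 with the block, 193 with limma, 44 with libraries 1 and 2 summed, 3426 without both libraries numbered 3, and 103 to 926 with 1 left out. The DHT interaction had 29 genes, and 156 with DESeq2, 427 (2.93%) with the block, 0 with limma and 5 to 90 with 1 library left out. The enzalutamide interaction had 51, and 256, 573, 16 and 16 to 176. In knockdown cells 3236 genes for DHT became 1649 with only the groups compared, and 2949 for enzalutamide became 1550, or 4518 with the block. KLK1 and, at 4 to 45 counts a CSS library, KLK15 were limited by depth.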
